A study of Mus musculus with 22 samples.

Results

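The iron handling genes were followed through the series as a set of 9: *Tfrc*, *Tfr2*, *Slc40a1*, *Slc11a2*, *Fth1*, *Ftl1*, *Hamp*, *Hfe* and *Hfe2*. They were taken by name, all 9 of the list were found among the 37991 genes of the RNA-seq count files. The rule uses gene names and no threshold, but the list was drawn up with earlier results of these data known. The series compares wild-type FVB mice with mice homozygous for *MommeD28* (MommeD28/MommeD28), a chemically induced null allele of the zinc finger gene *Rlf*. Per the methods of the study, both genotypes come from the Line3 FVB/NJ background, which carries a multi-copy GFP transgene driven by the human alpha-globin promoter and its HS-40 enhancer. Whole-genome bisulphite sequencing (WGBS) covered E10.5 whole embryos (all male), E14.5 livers (replicate 1 male and replicate 2 female in each genotype) and E18.5 livers (all female), with 2 wild-type and 2 homozygous libraries at each stage. RNA-seq covered 3 wild-type and 3 mutant E14.5 livers, in which replicate 3 was female and the others male. The RNA-seq labels call the mutants Rlf mutant, and the study describes them as homozygous for the same allele. The 4 H3K4me1 samples of the series were not analysed here.

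Iron enters most cells when transferrin binds its receptor and the complex is taken up, and in the fetal liver the largest users are erythroblasts, which need iron for haem. Cells store iron inside ferritin and release it only through the exporter ferroportin. Hepatocytes set the body's iron supply by secreting hepcidin, which removes ferroportin from the cell surface, and they sense iron through a second transferrin receptor, HFE and the BMP co-receptor hemojuvelin. Many of these messages carry an iron-responsive element, a short stem-loop in an untranslated region that iron regulatory proteins bind when iron is low. Methylation of CpG sites near a transcription start site (TSS) is a separate layer, and the levels below are the percentage of reads that stayed unconverted at CpGs (%mCG).

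The stem-loop was searched for in the annotated untranslated regions of all protein-coding transcripts, as C, 5 bases, CAGTGN and 5 bases that pair with the first 5 (G with U allowed), on the transcript strand only. It was present in 157 of 20302 genes with an annotated untranslated region (0.773%), and in 4 of the 9 members. *Fth1*, *Ftl1* and *Slc40a1* had 1 each in the 5′ untranslated region, and *Tfrc* had 4 in the 3′ untranslated region. Elements at the 5′ end are known to block translation when iron is low, and those at the 3′ end to keep the message stable. No stem-loop of these letters was found in the annotated untranslated regions of *Slc11a2*, *Tfr2*, *Hamp*, *Hfe* or *Hfe2*. The search asked for 5 unbroken pairs, so an element with a bulge or mismatch there would be missed. It therefore does not show that these messages lack an iron-responsive element. The sequences are shown because they are the part of these messages that iron regulatory proteins are known to bind. Capitals mark the bulged C and the loop, the build is NCBIM37 (mm9), and each is written 5′ to 3′ on the strand of the gene:
Fth1, chr19:10057222-10057250, plus strand: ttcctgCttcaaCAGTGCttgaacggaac
Ftl1, chr7:52715149-52715177, minus strand: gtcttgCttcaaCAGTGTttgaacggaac
Slc40a1, chr1:45982310-45982338, minus strand: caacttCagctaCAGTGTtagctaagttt
Tfrc, chr16:32631305-32631333, plus strand: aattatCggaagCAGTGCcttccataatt
Tfrc, chr16:32631684-32631712, plus strand: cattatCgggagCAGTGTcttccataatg
Tfrc, chr16:32631749-32631777, plus strand: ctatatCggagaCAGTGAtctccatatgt
Tfrc, chr16:32631796-32631824, plus strand: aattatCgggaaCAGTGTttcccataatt

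The count files held 12928313 to 14621004 reads in genes per liver, and the WGBS libraries a mean of 17.2 to 36.1 reads per listed autosomal CpG. Autosomal methylation was 70.6% and 72.0% in wild-type and 73.2% and 73.9% in homozygous embryos, 56.4% and 58.5% against 60.3% and 59.2% in E14.5 livers, and 61.4% and 61.7% against 65.5% and 61.4% in E18.5 livers. Both homozygous libraries thus lay above both wild-type libraries over all autosomes at E10.5 and E14.5, and homozygous replicate 1 stood apart at E18.5, where it also held the higher *Tfr2* value; the part of these levels in the results below was not tested. Across libraries the unconverted share of spiked lambda DNA ran from 0.0412% to 0.0775%. *Rlf* itself was read at 70.4 ± 1.73 CPM (SD, n = 3) in wild-type and 74.6 ± 6.28 CPM (n = 3) in mutant livers, with an adjusted p of 0.646 in edgeR, so its transcript level does not check the labels. The livers held the markers of both main cell types, erythroid (11 of 12 listed genes found) and hepatoblast (12 of 12). The labels do not tie replicates of different assays to the same animal, nor say that each library is 1 animal, so p-values measure the spread between these libraries only.

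At E14.5 the members spanned a wide range of RNA level per length. *Fth1*, the ferritin heavy chain, stood at a median of 2393 RPKM over the 6 livers (lowest 2306, highest 2788), and its mean of 2440 RPKM ranked 9th of 21864 genes with a count. *Ftl1*, the ferritin light chain, followed at 564.5 RPKM (519.8 to 611.7), and *Tfrc*, the receptor that brings in transferrin iron, at 276.4 RPKM (223.3 to 312.3). *Slc40a1*, which encodes ferroportin, stood at 87.7 RPKM (84.6 to 91.8). Each of these ranges lay above that of the next gene in the order.

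*Tfr2*, the second transferrin receptor, stood at 30.1 RPKM (21.5 to 36.9) and *Slc11a2*, the divalent metal transporter DMT1, at 20.7 RPKM (19.9 to 23.2), and these ranges overlapped. *Hfe*, an MHC class I-like partner of the transferrin receptors, stood at 3.98 RPKM (3.33 to 4.44) and *Hfe2*, which encodes hemojuvelin, at 1.95 RPKM (1.46 to 2.49). *Hamp*, the hepcidin gene, gave 0, 2 and 3 reads in the wild-type and 0, 1 and 1 reads in the mutant livers, and its near-identical copy *Hamp2* gave 0 in all 6. *Hamp* was thus counted at or under 3 reads in every liver, and no difference between genotypes was detectable at this depth. How reads that match both *Hamp* and *Hamp2* were counted is uncertain, so these counts may understate the RNA. *Fth1* and *Ftl1* have processed copies elsewhere in the genome, and how such reads were shared among copies is uncertain, as is the strand of reads where *Slc11a2* overlaps *Gm5475*.

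**Figure D1:**
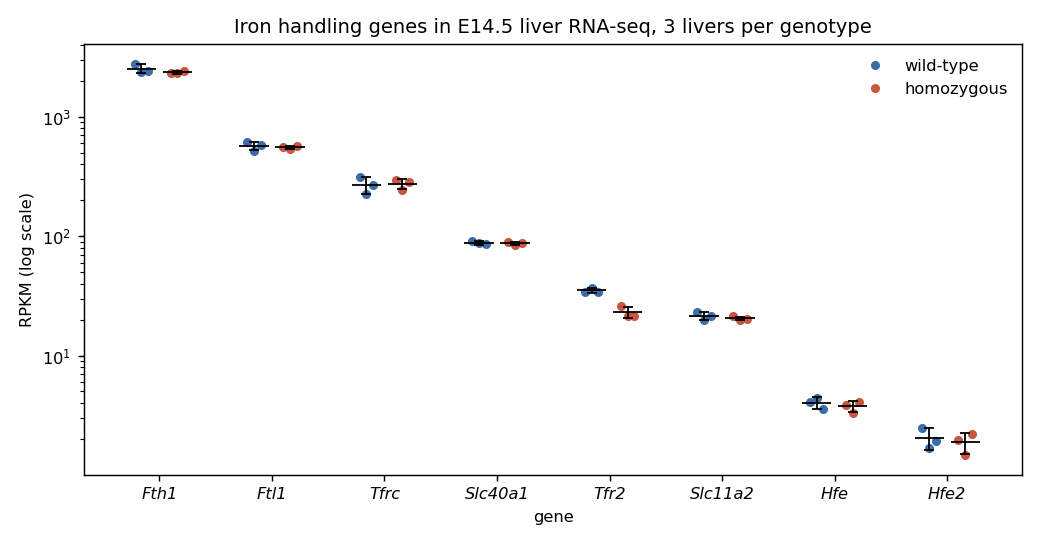
RNA level of 8 iron handling genes in E14.5 liver, in RPKM on a log axis, with a point for each of 3 wild-type and 3 homozygous livers, a bar at the mean and error bars of 1 SD; *Hamp* (at most 3 reads) is left out. The 3 homozygous livers lie below the 3 wild-type livers at *Tfr2*, and the genotypes overlap at the other 7 genes.

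*Tfr2* was the member whose RNA level fell with loss of Rlf. It was read at 100.1, 107.9 and 100.1 CPM in the wild-type livers and at 75.8, 63.2 and 62.9 CPM in the mutants. All 3 mutants lay below all 3 wild-type livers. The fall was 0.61 on the log2 scale (SE 0.0768), from 102.7 ± 4.51 CPM (SD, n = 3) to 67.3 ± 7.38 CPM (n = 3), with an adjusted p of 0.00266 in edgeR's quasi-likelihood test, and it held in all 11 other fits, with adjusted p up to 0.0199 when mutant replicate 3 was left out. Over all 14183 genes tested, 1.39% were called in either direction (99 higher and 98 lower), and with the replicate number as a block 3.24% (263 higher and 197 lower); 1 of 8 tested members was called in both fits. Among these cells *Tfr2* is known from hepatocytes and erythroblasts. Summed hepatoblast markers ran from 59231 to 70206 CPM in wild-type and from 72461 to 84157 CPM in mutant livers, and summed erythroid markers from 28726 to 53314 and from 35753 to 38801 CPM; 0 of 12 and 0 of 11 were called. In whole liver, fewer cells of a type and less RNA per cell cannot be told apart, and the part of these markers in the *Tfr2* result was not tested.

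No call was made for the other 7 tested members, and their intervals set how far apart the genotypes could lie. The interval was narrowest at ferroportin: *Slc40a1* differed by -0.02 on the log2 scale, with a 95% interval of -0.15 to 0.12. *Fth1* differed by -0.11 (-0.26 to 0.05) and *Ftl1* by -0.04 (-0.20 to 0.11). *Tfrc* differed by 0.03 (-0.21 to 0.26) and *Slc11a2* by -0.07 (-0.22 to 0.08). The intervals were widest for the low genes, with *Hfe* at -0.10 (-0.37 to 0.17) and *Hfe2* at -0.10 (-0.56 to 0.35). The signs of *Tfrc*, *Slc40a1*, *Ftl1* and *Hfe2* changed when single livers were left out. The median over the 8 tested members was -0.08, against -0.00171 over all genes tested.

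Other genes of the pathway were read from 5 lists, beside 1.39% of all tested genes called (3.24% with the replicate block). In the list of hepcidin control, 1 of 18 tested genes was higher and 0 were lower: *Fam132b*, which encodes erythroferrone, the erythroblast hormone that lowers hepcidin, rose from 11.1, 13.02 and 13.7 CPM to 19.0, 23.7 and 16.8 CPM (log2 0.65, SE 0.138, adjusted p 0.0421, edgeR). *Tmprss6*, the protease that cleaves hemojuvelin, stood at 73.9 ± 7.17 and 58.7 ± 1.70 CPM (log2 -0.33, adjusted p 0.0542), and was called with the replicate block (adjusted p 0.0230). In the list of iron and haem transport, 1 of 23 was higher and 1 lower. *Trf*, which encodes transferrin, rose from 768.9, 701.1 and 804.5 CPM to 1031, 1171 and 924.9 CPM (log2 0.46, SE 0.0876, adjusted p 0.0289). *Lcn2*, a siderophore-binding protein made by neutrophils among other cells, fell from 27.7, 45.3 and 29.5 CPM to 20.2, 17.5 and 20.5 CPM (log2 -0.82, adjusted p 0.0319). In each of the 3 called genes the genotypes did not overlap. These genes were picked by their calls in the same livers, so this is a description and adds no support.

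The calls on *Fam132b*, *Trf* and *Lcn2* were each lost when some single livers were left out. The adjusted p of *Fam132b* (edgeR) was above the threshold without any single wild-type replicate or without mutant replicate 1 or 2, and reached 0.139. That of *Trf* was above it without wild-type replicate 1 or 3 or mutant replicate 1 or 2, and reached 0.121. That of *Lcn2* was above it without any single mutant replicate, and reached 0.116. Of 6 neutrophil markers 3 (*Elane*, *Ltf* and *S100a8*) were lower in mutants, and *Mpo*, *Prtn3* and *Ctsg* were not called. The count was 0 without mutant replicate 1 or 3 and 1 by DESeq2, and the list's median was -0.35. The summed level ran from 577.3 to 808.5 CPM in wild-type and from 526.7 to 623.2 CPM in mutant livers, and these ranges overlapped. Transferrin is made by hepatocytes, and the hepatoblast sums are those given beside *Tfr2*. Of 10 macrophage markers 1 was lower, *Cd5l* (log2 -1.19, adjusted p 0.00187), the list's median was 0.02, *Marco* stood at an adjusted p of 0.0709 and of 0.0235 with the replicate block, and the sums ran from 736.0 to 805.9 CPM in wild-type and from 704.4 to 722.8 CPM in mutant livers. Of 6 megakaryocyte markers 1 was higher, *Pf4* (log2 0.40, adjusted p 0.0143), the list's median was 0.30, *Itga2b* stood at an adjusted p of 0.0687 and of 0.0322 with the replicate block, and the sums ran from 490.5 to 514.8 and from 580.1 to 650.4 CPM. The part of any marker list in these results or in that of *Tfr2* was not tested.

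The lists nearest to iron sensing and storage held no calls without the replicate block, where 1.39% of all tested genes were called. Of 7 genes of iron sensing (among them *Aco1* and *Ireb2*, the iron regulatory proteins) none was called, with *Epas1* at an adjusted p of 0.0502 and of 0.0290 with the replicate block; edgeR's median over the list was -0.03. Of 6 tested genes of storage paralogs and haem recycling none was called (median -0.11), with *Blvrb* at 419.9, *Hpx* at 254.3 and *Hmox1* at 96.6 RPKM the highest. Of 10 genes of iron-sulphur cluster assembly none was called (median -0.14), with *Glrx5* at 468.0, *Hspa9* at 172.7 and *Isca2* at 44.5 RPKM the highest. The highest levels in the other lists were *Pcbp1* (297.6 RPKM), *Pcbp2* (91.1) and *Ireb2* (24.1) in iron sensing, *B2m* (470.8), *Tmprss6* (20.8) and *Id1* (18.8) in hepcidin control, and the mitochondrial iron importer *Slc25a37* (832.5), *Trf* (272.0) and *Snx3* (174.1) in transport.

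For tested members other than *Fth1*, the gene whose log2 CPM ran most alike over the 6 livers was sought among the 9727 other genes with a mean of at least 10 CPM (9728 for *Hfe2*). These were *Ccbl1* for *Tfr2* (Pearson r 0.997), *Ube2o* for *Tfrc* (0.993), *Gm7535* for *Slc40a1* (0.986), *Tspan33* for *Slc11a2* (0.995), *Nusap1* for *Ftl1* (0.998), *Plbd2* for *Hfe* (0.973) and *Tubb2a* for *Hfe2* (0.986). With 6 livers that share their genotype groups and normalization, the highest of so many coefficients is a description.

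Methylation within 1 kb of the TSS differed widely among the members. *Tfrc* (103 CpGs in the reference window), *Fth1* (97) and *Slc40a1* (71) stayed at or below 11.8% in every one of the 12 libraries. *Ftl1* (89 CpGs) stood at 16.4% to 18.6% in E10.5 embryos and at most 7.63% in the livers. *Hamp* (14 CpGs) ran from 45.0% to 76.0% and *Hfe2* (24 CpGs) from 54.6% to 79.9%. *Slc11a2* (33 CpGs) ran from 46.5% to 57.9%, *Hfe* (37 CpGs) from 19.8% to 30.6% and *Tfr2* (45 CpGs) from 15.1% to 72.1%. The window of *Slc11a2* surrounds the 5′ end of the gene, 2070 bp from the start of its longest protein-coding transcript, and that of *Hfe* lies 5166 bp from its own.

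**Figure D2:**
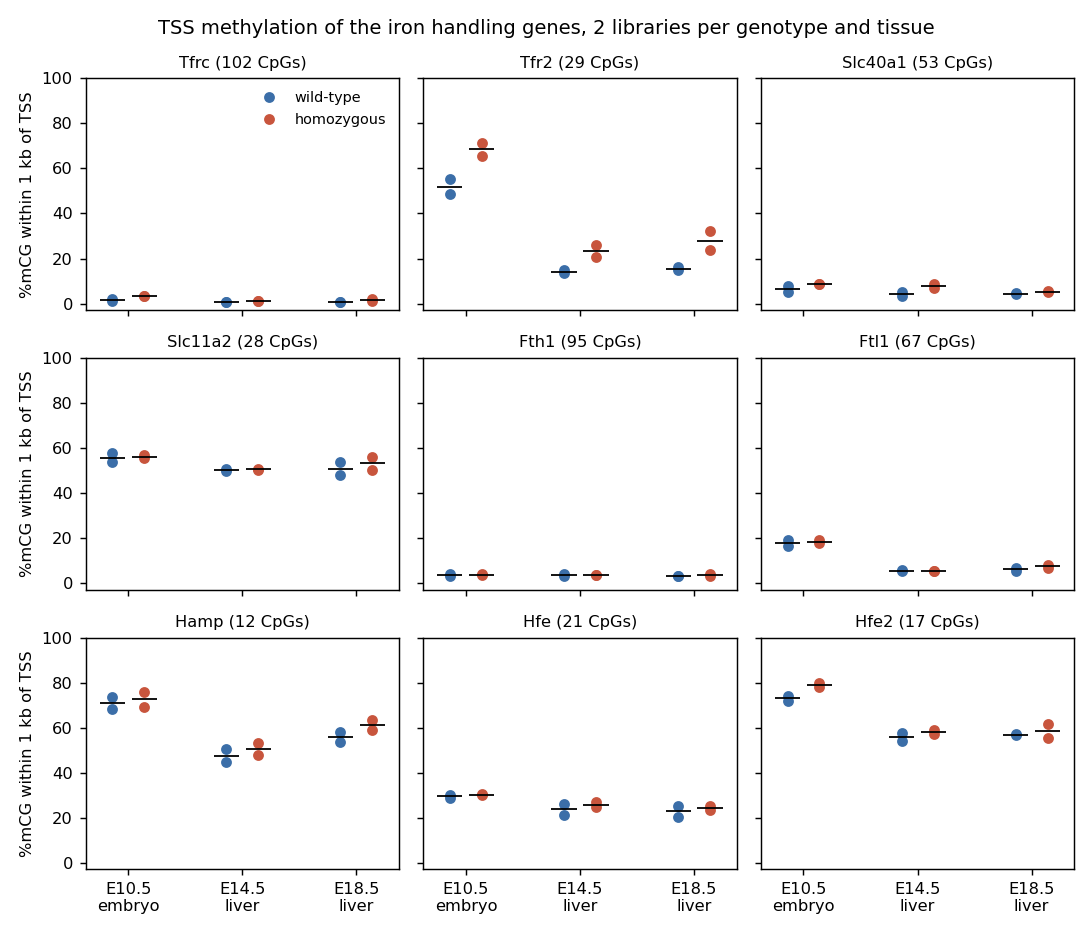
Methylation (%mCG, 0 to 100) within 1 kb of the TSS of the 9 iron handling genes in whole embryos at E10.5 and in livers at both E14.5 and E18.5, over CpGs read 6 times or more in each of the 12 libraries, with a point for each of 2 wild-type and 2 homozygous libraries and a bar at the mean. *Tfr2* falls from the embryo to the liver, and both homozygous libraries lie above both wild-type libraries in each tissue.

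The *Tfr2* start site was more methylated in mutants in E10.5 embryos and E14.5 livers. In E10.5 embryos its TSS window stood at 49.3% and 58.4% in the wild-type and at 72.1% and 66.6% in the homozygous libraries (37 CpGs). In E14.5 liver the values were 18.4% and 20.1% against 30.7% and 24.1% (43 CpGs), and in E18.5 liver 15.1% and 17.0% against 31.5% and 23.8% (32 CpGs). Both homozygous libraries lay above both wild-type libraries in each tissue. The difference was 15.5 points at E10.5 (adjusted p 0.0186, edgeR quasi-likelihood test on methylated and unmethylated counts), 8.12 points at E14.5 (adjusted p 0.0311) and 11.6 points at E18.5 (adjusted p 0.0813, not called). The genotype difference was not found to vary among the 3 tissues (adjusted p 0.999, with 0.0104% of genes called). The call was lost at E10.5 (adjusted p 0.433 and 0.142) and at E14.5 (0.0787 and 0.517) without wild-type replicate 1 or without homozygous replicate 1, and it was made at E18.5 without homozygous replicate 2 (0.0207). Without homozygous replicate 1 the difference was 4.81 points at E14.5. Of 6 other settings, 4 made the call at E18.5 (adjusted p down to 0.00288). At E10.5, 2 lost it (up to 0.131), with CpGs of at least 1 read and within 500 bp of the TSS. The *Tfr2* window also holds the 3′ end of *Actl6b*, a gene on the same strand.

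Of all autosomal protein-coding genes tested, 1.55% were called at the TSS in E10.5 embryos, 2.8% in E14.5 liver and 0.464% in E18.5 liver, in either direction. The median difference over all these genes, homozygous minus wild-type, was 0.37, 0.47 and 0.23 points. Against that, 1 of 9 members was called at E10.5, 2 of 9 at E14.5 and 0 of 9 at E18.5. The second call at E14.5 was *Slc40a1*, from 5.76% and 7.91% in wild-type to 10.1% and 11.8% in homozygous livers (4.08 points, adjusted p 0.0214). That call was lost within 500 bp of the TSS, where the difference was 0.70 points, and without wild-type replicate 1 or either homozygous replicate (adjusted p up to 0.229). At *Slc40a1* and *Tfrc*, as at *Tfr2*, both homozygous libraries lay above both wild-type libraries in each tissue, and *Tfrc* was not called (edgeR adjusted p 0.159, 0.177 and 0.380). The share of all genes with this order is not given here. Methylation over all autosomes had the same order at E10.5 and E14.5, so it is not read as a trait of these members. In the 7 members with no call in any tissue the differences ran from -0.13 points (*Ftl1*, E14.5) to 5.76 points (*Hfe2*, E10.5).

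A stretch of 30 bases with 3 covered CpGs on either side of the *Tfr2* TSS is shown because it lies in the window that differed. Capitals mark the CpGs (NCBIM37, plus strand):
Tfr2, 82 to 72 bp before the TSS, chr5:138010988-138011017: agaaaaggaCGtgCGggggCGgagtcctct
Tfr2, 240 to 245 bp after the TSS, chr5:138011308-138011337: cctggtgtcttCGtCGCGgcttggatttca
The first stood at 2.20% and 2.42% in wild-type and at 7.35% and 13.2% in homozygous E14.5 livers, and at 0% in both wild-type against 10.4% and 13.9% in homozygous E18.5 livers. The second stood at 2.98% and 6.96% against 33.1% and 19.0% at E14.5, and at 4.35% and 15.4% against 52.8% and 23.6% at E18.5. In E10.5 embryos the 2 stretches stood at 35.9% ± 4.57 and 52.97% ± 1.996 (SD, n = 2) in wild-type and at 57.8% ± 11.9 and 69.5% ± 15.6 in homozygous libraries. Each value rests on 41 to 235 reads. Of the 29 CpGs in the window read 6 times or more in each library, 25 were higher on average in homozygous libraries at E10.5, 25 at E14.5, 23 at E18.5 and 18 in all 3 tissues; neighbouring CpGs share reads.

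**Figure D3:**
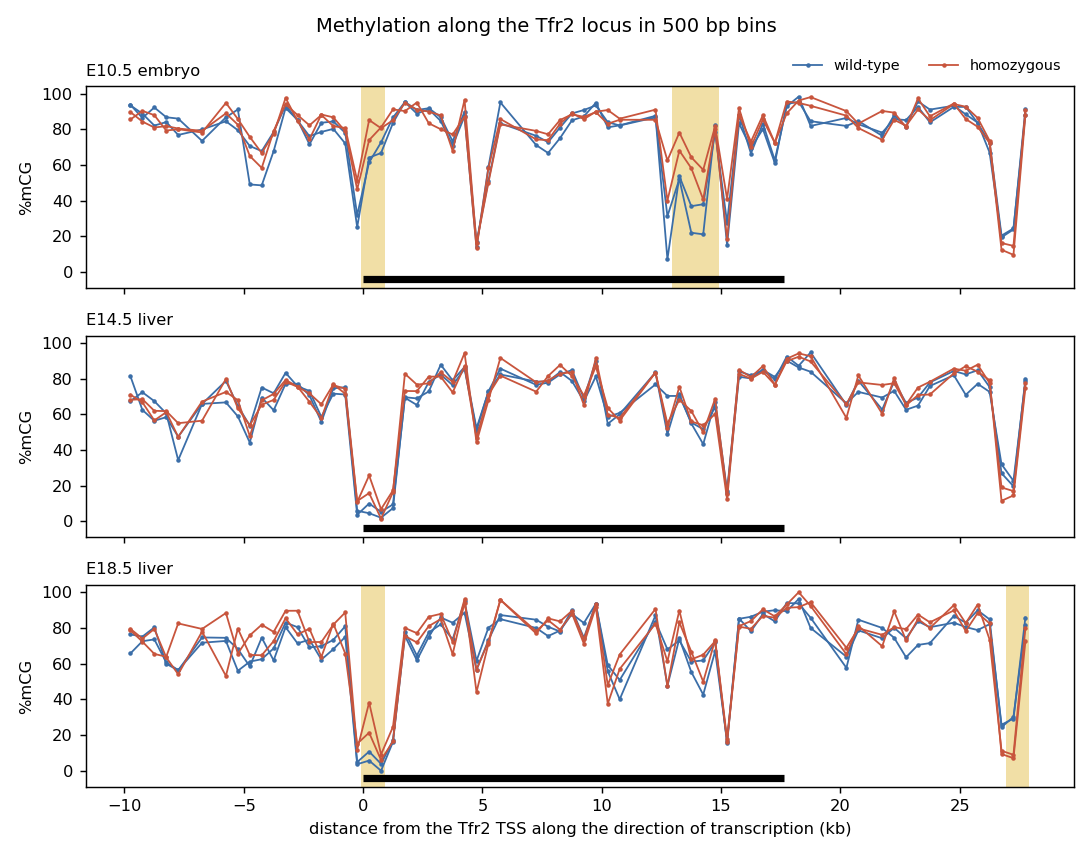
Methylation (%mCG) in 500 bp bins along the *Tfr2* locus against distance from its TSS in kb, a line for each of 2 wild-type and 2 homozygous libraries at E10.5 (embryo), E14.5 and E18.5 (both liver); the black bar is the gene and shaded spans are called 1 kb tiles. The dip at the TSS is deeper in the livers than in the embryo and shallower in homozygous libraries, and a second difference lies in the shaded span near the 3′ end of the gene in the embryo.

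Tiles of 1 kb within 10 kb of each member placed the differences more exactly. The call on a tile asked for over 15 points between the means as well as edgeR's adjusted p below 0.05, which took 0.37% of autosomal tiles in E10.5 embryos, 0.134% in E14.5 liver and 0.134% in E18.5 liver. At the members, 5 of 149 tiles were called at E10.5, 2 of 192 at E14.5 and 4 of 161 at E18.5. They lay at *Tfr2* and on the 3′ side of *Hfe*, and none at the other 7 members.

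At *Tfr2*, the tile over the first 2 exons (chr5:138011001-138012000) stood at 50.1% and 52.5% in wild-type and at 71.8% and 64.3% in homozygous embryos (16.7 points, adjusted p 0.0275). In E18.5 liver it stood at 3.90% and 6.85% against 25.9% and 16.3% (15.7 points, adjusted p 5.05e-07). In E14.5 liver it stood at 3.77% and 7.07% against 18.7% and 12.1%, a difference of 10.01 points with an adjusted p of 1.31e-09 that was under the 15 points asked for. Without wild-type replicate 1 or homozygous replicate 1 the tile was no longer called at E10.5 or at E18.5.

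A pair of adjoining tiles near the 3′ end of *Tfr2* were called in the embryo. The tile over exons 13 to 18 (chr5:138024001-138025000) stood at 26.9% and 40.4% in wild-type and at 67.3% and 58.7% in homozygous embryos (29.4 points, adjusted p 3.78e-06), and the next (chr5:138025001-138026000) at 25.8% and 41.8% against 59.0% and 48.7% (20.05 points, adjusted p 0.00400). In the livers the first of these differed by 2.43 points at E14.5 and 5.60 points at E18.5, and neither was called. Whether the genotype difference of these tiles varied among tissues was not tested. A further tile, 9292 bp beyond the gene in *Mospd3* exons (chr5:138038001-138039000), was lower in homozygous E18.5 livers, at 31.5% and 31.0% against 50.1% and 47.1% (-17.4 points, adjusted p 0.0153). The same tile differed by -12.5 points at E10.5 and by -8.97 points at E14.5, and was not called there. Calls here depend on single libraries: the tile at 138025001 was lost without wild-type replicate 1 or homozygous replicate 1, and the tile in *Mospd3* without either wild-type replicate.

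The largest genotype differences near a member in E14.5 and E18.5 liver lay in 2 adjoining tiles that begin 4903 and 5903 bp beyond the 3′ end of *Hfe* and hold *Hist1h1t*, the testis linker histone gene of the neighbouring histone cluster. The tile nearer to *Hfe* (chr13:23788001-23789000) stood at 21.4% and 20.3% in wild-type and at 45.9% and 47.7% in homozygous E14.5 livers (25.9 points, adjusted p 2.55e-14). In E10.5 embryos it stood at 39.1% and 62.0% against 82.4% and 77.8% (29.5 points, adjusted p 2.94e-05), and in E18.5 livers at 24.3% and 30.7% against 59.5% and 55.9% (30.3 points, adjusted p 5.74e-07). The farther tile (chr13:23787001-23788000) stood at 50.3% and 50.5% against 73.9% and 73.0% at E14.5 (23.0 points), and differed by 19.0 points at E10.5 and by 22.1 points at E18.5.

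At all 10 CpGs of the nearer tile with at least 6 reads in the 12 libraries, both homozygous libraries lay above both wild-type libraries in each of the 3 tissues. In the farther tile this held at 12 of 18 CpGs at E10.5, 14 at E14.5 and 15 at E18.5. Both tiles were picked by their calls in these libraries and neighbouring CpGs share reads, so the counts are a description. Both tiles were called in every leave-one-out fit at E10.5 and at E14.5, but at E10.5 the nearer tile differed by 18.1 points without wild-type replicate 1 (adjusted p 0.0461) and by 40.9 points without wild-type replicate 2. At E18.5 the nearer tile was not called without wild-type replicate 1 (adjusted p 0.125), nor the farther without either wild-type replicate. The *Hfe* TSS stood at 24.2% ± 3.17 (SD, n = 2) in wild-type and 24.6% ± 1.40 in homozygous E14.5 livers, and its RNA level was not called. A stretch of 30 bases with 3 covered CpGs in each tile is shown because both genotypes can be read there in every tissue (NCBIM37, written on the minus strand, that of *Hfe*):
Nearer tile, chr13:23788250-23788279: ttggCGgggcttttaCGttgctgcaCGccc
Farther tile, chr13:23787733-23787762: ttgaggcCGcaggagcCGtttcCGacatgg
The first stood at 16.8% and 9.43% in wild-type and at 25.1% and 27.2% in homozygous E14.5 livers, and the second at 22.4% and 36.9% against 69.2% and 73.6%.

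**Figure D4:**
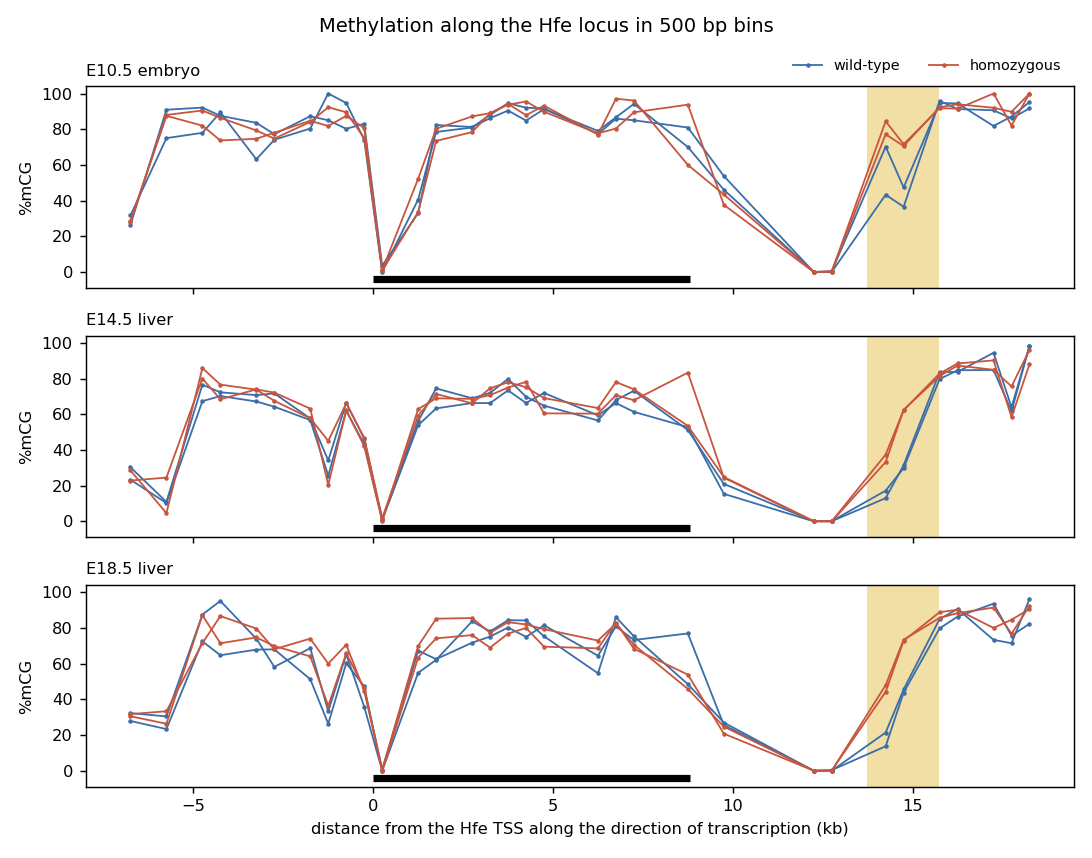
Methylation (%mCG) in 500 bp bins along the *Hfe* locus against distance from its TSS in kb in the direction of transcription, a line for each of 2 wild-type and 2 homozygous libraries at E10.5 (embryo), E14.5 and E18.5 (both liver); the black bar is the gene and shaded spans are called 1 kb tiles. The genotypes lie closer over the gene and separate in the shaded span past its 3′ end. Over the gene body, homozygous minus wild-type was 4.64 points at E10.5, 1.59 at E14.5 and -1.14 at E18.5, none called.

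Over whole gene bodies 0 of 9 members was called in any of the 3 tissues, where 1.62%, 3.14% and 0.482% of genes were called at E10.5, E14.5 and E18.5. The nearest was *Tfr2* at E10.5, with 54.5% and 58.5% in wild-type and 66.1% and 64.7% in homozygous embryos (8.91 points, adjusted p 0.0538), which was called with the 1 kb beside the TSS left out. *Hfe2* at E14.5 stood at 26.4% and 24.9% against 29.8% and 30.1% (4.32 points, adjusted p 0.141). The genotype difference was not found to vary among tissues for any member (0 of 9 called, 0.132% of genes called).

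Between the E10.5 embryo and the E14.5 liver the calls on members at the TSS were all lower. The falls at *Tfr2*, *Hamp* and *Hfe2* stayed above 15 points in every other fit. These values are over both genotypes and over CpGs covered in all 12 libraries. Stage, tissue and sequencing depth cannot be told apart between the embryos and the livers. Sex differs in part, since the embryos were all male and the E14.5 livers of both sexes. *Tfr2* fell by 41.5 points, from a range of 48.6% to 71.5% in the 4 embryos to one of 13.4% to 25.9% in the 4 livers, and the 2 male livers stood at 13.4% and 25.9%. *Hamp* fell by 22.9 points (71.8% to 48.9%), *Hfe2* by 19.1 points (76.0% to 56.9%) and *Ftl1* by 12.7 points (18.1% to 5.47%), and in each the embryos and livers did not overlap. Within 500 bp of the TSS the fall of *Ftl1* was -0.39 points. *Tfrc* fell by 1.64 points from 2.47% (lost within 500 bp of the TSS, -0.03 points), *Slc11a2* by 5.61 points and *Hfe* by 5.17 points. *Slc40a1* (7.45% and 6.05%, adjusted p 0.0531) and *Fth1* (3.64% and 3.54%) were not called. Over all genes the median TSS difference was -0.58 points. Methylation over all autosomes ran from 70.6% to 73.9% in the embryos and from 56.4% to 60.3% in the E14.5 livers. The part of this autosomal difference in the falls of the members was not tested.

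These 7 of 9 calls, all lower, compare with 67.3% of genes called and 46.2% called lower. The calls on *Slc11a2* and *Hfe* did not last: that on *Slc11a2* was lost without any of 6 of the 8 libraries (adjusted p up to 0.124) and turned to 0.76 points within 500 bp, and that on *Hfe* was lost without any of 4 (up to 0.134). Around the TSS of its longest protein-coding transcript, *Hfe* differed by -23.6 points (adjusted p 1.85e-11). Gene bodies of *Hamp* (-36.0 points), *Fth1* (-10.9), *Slc40a1* (-10.2), *Hfe* (-9.40), *Slc11a2* (-3.93) and *Ftl1* (-1.12) also fell, beside 84.2% of genes called, 78.5% called lower and a median of -9.97 points over all genes. The *Ftl1* call was lost without any of 5 of the 8 libraries (adjusted p up to 0.207). With the 1 kb beside the TSS left out, the gene body differences were -18.6 points for *Ftl1*, -26.6 for *Fth1* and -6.63 for *Slc40a1*. Gene bodies of *Tfrc*, *Tfr2* and *Hfe2* differed by 1.25, 0.631 and 1.57 points and were not called.

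Between E14.5 and E18.5 liver 1 of 9 members was called at the TSS, the hepcidin gene, with 0 called in wild-type libraries only and 2 under 3 other settings. The E14.5 livers are of both sexes and the E18.5 livers all female. Per the study, erythroblasts are the main cell type at E14.5 and hepatoblasts at E18.5. The E14.5 livers were also sequenced deeper. Stage, cell make-up and depth therefore cannot be told apart in this comparison or in its tiles. *Hamp* rose from 48.9% ± 3.59 to 58.5% ± 3.95 (SD, n = 4 livers each; 9.55 points, adjusted p 0.00957), where 25.1% of genes were called. The call was lost without E14.5 wild-type replicate 1 (adjusted p 0.0675), E14.5 homozygous replicate 2 (0.0597) or E18.5 wild-type replicate 2 (0.0515), and with wild-type libraries only (0.140). *Tfr2* stood at 18.7% and 21.7% and was not called. Gene bodies of *Tfr2* (4.31 points) and *Hamp* (7.26) rose and that of *Fth1* fell by 3.10 points. Over all genes 49.7% were called, and the median difference was 2.55 points. Each of these calls on members was lost without any of 2 to 5 of the 8 livers. Of 5 other settings, the call held in 4 for *Tfr2*, in 3 for *Fth1* and in 1 for *Hamp*. With the 1 kb beside the TSS left out, the *Hamp* gene body differed by 1.55 points (adjusted p 0.848).

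No tile at a member differed by more than 15 points between E14.5 and E18.5 liver (0 of 161), where 0.723% of autosomal tiles were called. The median difference was 5.05 points over all autosomal tiles and 2.58 points over the tiles at the members. By member, the largest difference was 12.5 points at *Slc11a2*, in an intron (chr15:100220001-100221000), 11.01 points upstream of *Tfr2* in *Actl6b* (chr5:138004001-138005000), 10.4 points in the nearer tile beyond *Hfe*, 10.1 points beyond *Hamp* (chr7:31720001-31721000) and 9.86 points beyond *Tfrc* (chr16:32638001-32639000). At *Slc40a1* the largest was a fall of 8.91 points in the tile over exon 2 (chr1:45981001-45982000). That tile was also 12.3 points higher in homozygous E14.5 livers (60.3% and 63.0% against 75.7% and 72.0%, adjusted p 0.0218), under the 15 points asked for.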

How the data were processed

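The authors deposited read counts per Ensembl gene for 6 RNA-seq libraries (polyA RNA, TopHat, HTSeq without strand) and, for 12 WGBS libraries, the percent methylation with its read counts at each CpG (Bismark on mm9 carrying FVB variants, duplicates removed, strands merged). From the counts, edgeR 4.0.16 (R 4.3.3) fitted genotype by its quasi-likelihood test with TMM scaling, and calls were made at a Benjamini-Hochberg adjusted p under 0.05. Methylated and unmethylated counts were summed over CpGs with at least 6 reads in every library of a fit, within 1000 bp of the TSS (at least 5 CpGs), over gene bodies and in 1000 bp tiles (at least 8 CpGs), and were tested by the same tool over all autosomal protein-coding genes or tiles. CPM and RPKM were computed from the deposited counts. DESeq2 1.42.0 was an alternative. The fits were also run on simulated data, with the same spread for every gene in RNA-seq, which does not show how far the calls on these libraries can be trusted. In RNA-seq, deviations of same-numbered wild-type and mutant livers correlated over 14183 genes (r = 0.125, 0.226 and 0.409 in replicate order). Replicate 3, with the highest r, is the only female of each genotype, and the labels do not say whether the numbers pair livers. RNA-seq calls are from the fit of genotype alone, and values with the replicate number as a block are named as such. The members were all named, with pathway genes that passed the threshold, those with the highest level in each list, and called tiles. Members and lists were chosen with earlier results of these data known. The 4 H3K4me1 samples were not analysed here. The gene most alike to *Fth1* is not reported here.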

Additional observations from a re-analysis of the deposited data

How the results depend on the processing

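*Tfr2* stayed the only member called by expression under every alternative (1 called; 1 to 1 when single livers were left out). The signs of 4 uncalled members turned when a liver was left out, with log2 ranges of -0.0936 to 0.147 for *Tfrc*, -0.0405 to 0.0121 for *Slc40a1*, -0.245 to 0.062 for *Hfe2* and -0.106 to 0.0108 for *Ftl1*. Counts of members called at the TSS by genotype moved at E10.5 from 1 to 0 with CpGs of at least 1 read or within 500 bp and to 2 with the replicate block (0 to 2 when single libraries were left out), at E14.5 from 2 to 1 within 500 bp (0 to 2), and at E18.5 from 0 to 1 with at least 10 reads, within 500 bp, with all 12 libraries in 1 fit and with the replicate block (0 to 1). Gene bodies at E10.5 moved from 0 to 1 with at least 10 reads, without the 1 kb beside the TSS and with all 12 libraries, and to 2 with the replicate block (0 to 2). Between E14.5 and E18.5 liver, TSS calls moved from 1 to 2 with at least 10 reads, at least 1 read or the longest transcript and to 0 with wild-type libraries only (0 to 1), and gene body calls from 3 to 0 with wild-type libraries only (0 to 4). From E10.5 to E14.5 the counts were 7 (5 to 7) at the TSS and 6 (5 to 6) over gene bodies, and *Slc11a2* turned to 0.76 points within 500 bp. Of 6 other settings, the TSS call held in 3 for *Slc11a2*, 4 for *Hfe* and 5 for *Tfrc*. The gene body call of *Ftl1* held in 3 of 5. Called tiles moved at E10.5 from 5 to 3 above 20 points (3 to 7), at E14.5 from 2 to 4 above 10 points, at E18.5 from 4 to 2 above 20 points (0 to 5), and between the livers from 0 to 5 above 10 points. The causes were not tested.

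Same-numbered WGBS libraries deviated together only weakly (r from -0.0518 to 0.0582 at the TSS and from -0.0102 to 0.179 over gene bodies), so the numbers were not taken as pairing, although at E14.5 they also share a sex. With 2 libraries per genotype and tissue, single libraries decide many methylation calls.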
